A study of Mus musculus with 6 samples.

Results

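The transcription factors known for driving the epithelial to mesenchymal transition (EMT) are described here across a reprogramming time course in mouse fibroblasts. The set holds 9 genes: Snai1, Snai2, Zeb1, Zeb2, Twist1, Twist2, Prrx1, Prrx2 and Foxc2. Its members are the 22 probe sets whose platform annotation names exactly 1 of these genes, out of 34958 probe sets that name 1 gene and 18193 genes in all. Each probe set, a group of short probes against 1 transcript sequence, was kept apart. Of the 22, 19 lay above the filter on dim probe sets and were tested, and 3 did not.

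The cells were embryonic fibroblasts of the B6CBAF1/J strain, grown in a medium for embryonic stem cells that held fetal bovine serum and leukemia inhibitory factor. In the O(5R)SK groups they received SOX2, KLF4 and the form of OCT4 labelled 5R, and were collected on days 3, 5 and 7. In the O(WT)SK groups they received SOX2, KLF4 and wild-type OCT4 and were collected on the same days, so SOX2 and KLF4 are shared by all groups. Each combination and day has 1 Affymetrix array, 6 in all, and how the factors were delivered and what 5R stands for are not given in the labels.

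In EMT, epithelial cells give up their junctions and take on a motile, fibroblast-like state. SNAIL and ZEB proteins bind E-boxes, short DNA motifs, in promoters of epithelial genes such as Cdh1 and repress them, TWIST proteins bind E-boxes as dimers with E proteins, and PRRX and FOXC2 proteins act in mesenchymal tissue of the embryo. Fibroblasts express many of these factors, and the reverse passage, from mesenchymal to epithelial, is a known early step when fibroblasts are reprogrammed.

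All arrays had been scaled to the same 2% trimmed mean of 500. Log2 values of any 2 arrays correlated across probe sets, which are not independent, with r between 0.974 and 0.982. The brightest probe set read 34285 on the O(5R)SK day 7 array, against 40353 to 47606 on the others. All 12 fibroblast markers were above the filter and 0 of them passed the test for day 7 against day 3, with a median log2 difference of -0.02. The median was 0.05 after quantile normalization and -0.13 with a common median. As deposited, 5 were higher and 7 lower, from Thy1 (-0.71, limma adjusted p = 0.0573) and Postn (-0.65) to Pdgfrb (0.29). All 7 tested pluripotent cell markers of 15 were higher on day 7, beside 54.4% of all tested probe sets. Of these 4 passed, where 1.65% of all were called higher. The other 8 lay under the filter, which uses the mean over all arrays, so high day 7 values can lift a marker past it. Of 9 tested macrophage markers 8 were lower on day 7. The 2 that passed were Lyz2 and Marco, where 0.781% of all tested probe sets were called lower. Marco read 103 on day 3 and 2.15 on day 7 with O(5R)SK, and 164 and 20.5 with O(WT)SK. Its mean of log2 5.66 lay just above the filter at 5.63, so its high day 3 values can lift it past the filter. In bulk RNA, fewer cells of a type and less RNA per cell cannot be told apart.

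The comparison of day 7 with day 3 asks how the EMT factors move between these days of reprogramming. The series holds no array from before day 3 or of cells without the factors, so earlier changes were not measured. The 5 member probe sets with an unadjusted p under 0.05 in limma were 1 each of Snai1, Snai2 and Foxc2, which read lower on day 7 with both combinations, and 2 of Prrx1, which read higher. A further 2 Prrx1 probe sets, Twist1 and Twist2 also read higher on day 7 with both combinations. None of these passed the threshold of 0.05 for limma's adjusted p over the 27002 probe sets tested. Limma called 0 of the 19 member probe sets, where 2.43% of all tested probe sets were called (657, of which 446 were higher and 211 lower). The 5 at an unadjusted p under 0.05 are 26.3% of the 19, close to the 23.9% of all tested probe sets. Both day 7 arrays lay above both day 3 arrays for 4 of the 19 (21.1%, against 29.4% of all), namely Twist2 and 3 probe sets of Prrx1. Both lay below for 5 (26.3%, against 23.5% of all), namely Snai1, both Snai2 probe sets, Foxc2 and 1 probe set of Prrx1. Probe sets of the same gene are not separate observations. The median log2 difference of the 19 was 0.09, beside 0.04 for all tested probe sets. Differences are on the log2(intensity + 16) scale, which understates those of dim probe sets. Nothing in the labels says that the arrays came from separate cultures, so p-values rest on the scatter of these arrays alone and that scatter may be technical.

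**Figure D1:**
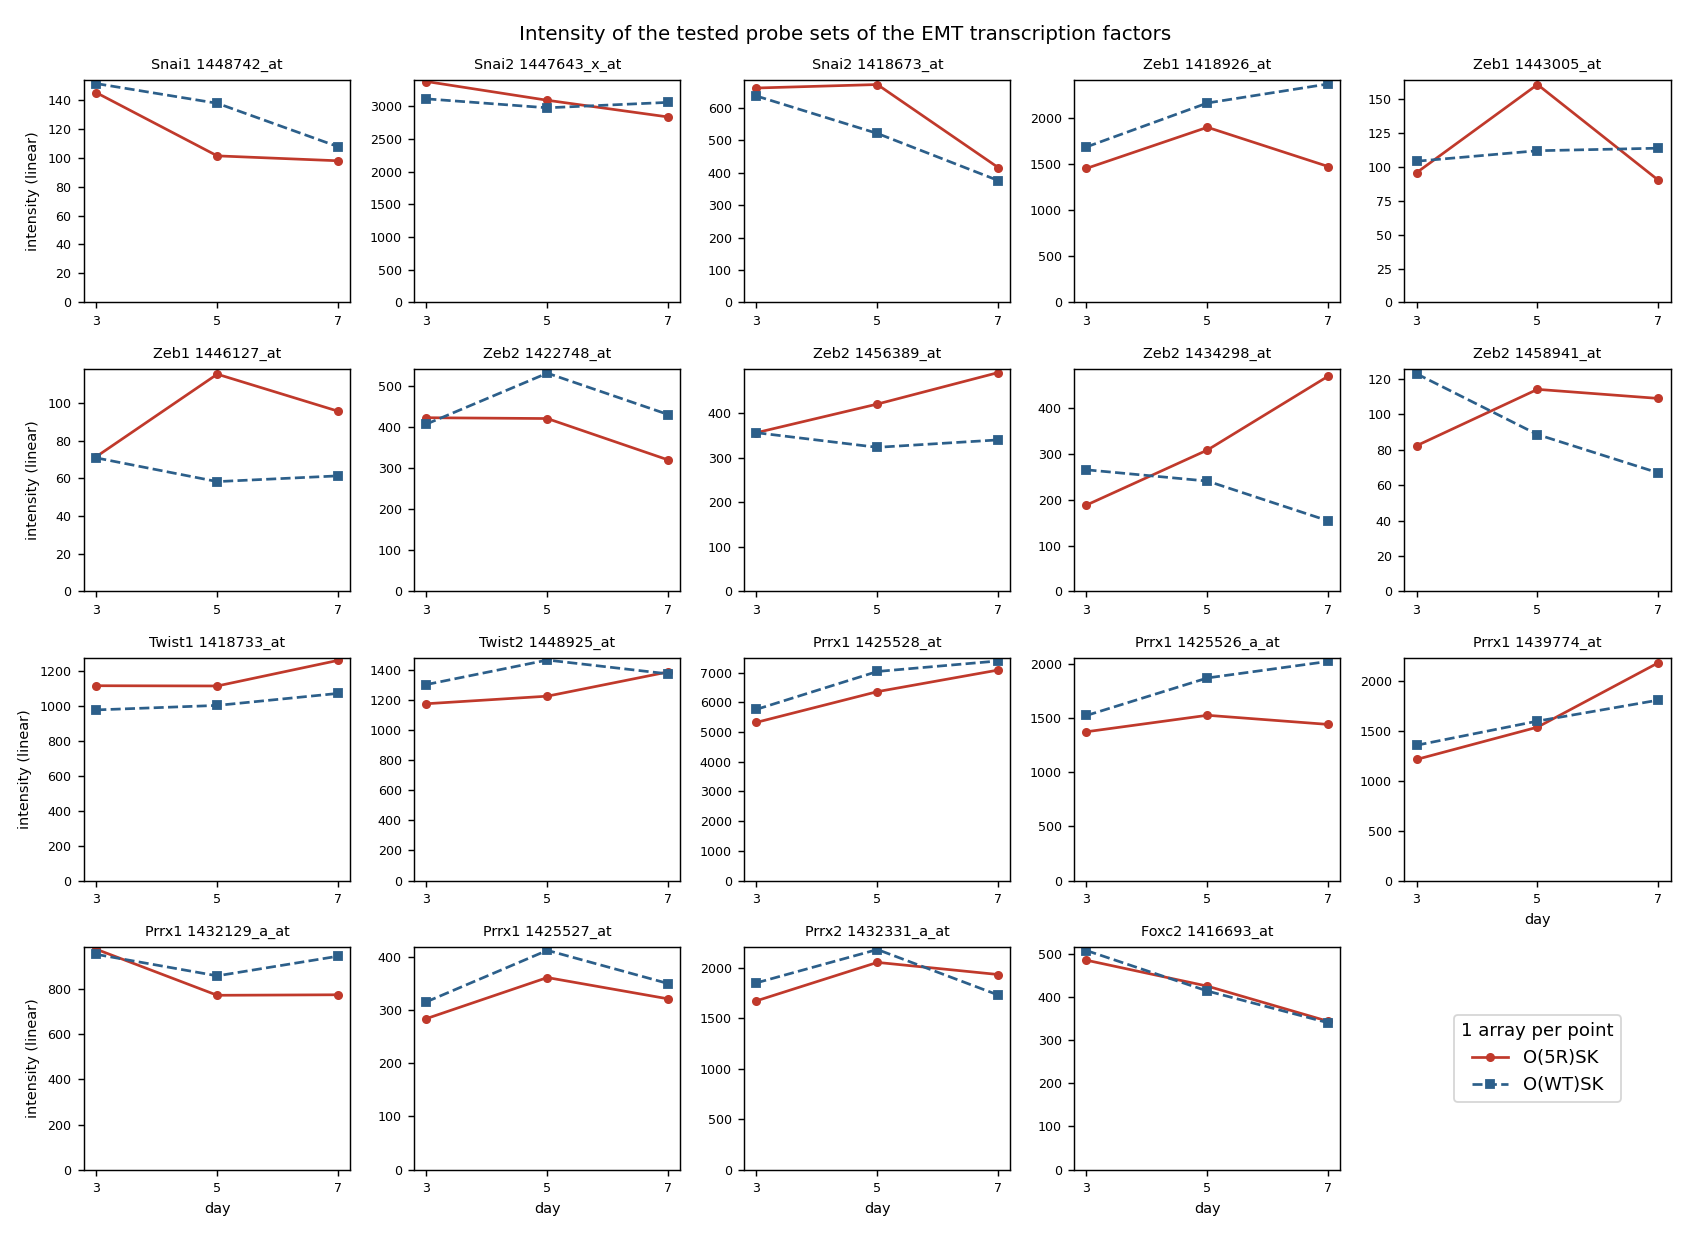
Linear intensity of the 19 tested probe sets of the EMT transcription factors against day, 1 array per point, with O(5R)SK as red circles and O(WT)SK as blue squares. Each panel has its own scale from 0, so heights are not comparable between panels. Foxc2 and the Snai2 probe set 1418673_at end lowest on day 7 with both combinations, while the lines of Zeb2 1434298_at cross.

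Snai1 encodes SNAIL, a zinc finger repressor of Cdh1. Its probe set 1448742_at read 145, 101 and 97.8 on days 3, 5 and 7 with O(5R)SK, and 151, 137 and 107 with O(WT)SK. Both day 7 arrays lay below both day 3 arrays, and on day 5 the O(5R)SK array was already near its day 7 level while the O(WT)SK array was not. The day 7 minus day 3 difference was -0.47 (SE 0.137, limma adjusted p = 0.146). O(5R)SK read below O(WT)SK on all 3 days, by log2 differences of -0.06, -0.39 and -0.12, and their mean of -0.19 (SE 0.112) had a limma adjusted p of 0.675.

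SNAIL and ZEB proteins bind the E-box CACCTG, read on the other strand as CAGGTG, and human SNAIL can bind an E-box of its own promoter. The window of the Snai1 promoter is shown because it alone among the members' 9 windows holds this motif. It spans chr2:167537945-167538244 on the plus strand of GRCm38.p6, 250 bases before the start site to 50 after it, from RefSeq. Capitals mark the motif, whose first base lies at position -126 from the start site.
Snai1: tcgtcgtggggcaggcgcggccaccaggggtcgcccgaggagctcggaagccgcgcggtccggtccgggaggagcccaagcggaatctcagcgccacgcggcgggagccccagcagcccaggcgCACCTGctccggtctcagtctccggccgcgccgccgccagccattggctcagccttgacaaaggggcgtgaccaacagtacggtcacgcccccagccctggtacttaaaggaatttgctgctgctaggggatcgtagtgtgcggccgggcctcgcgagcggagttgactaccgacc

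Promoters of 6 of the 9 members were in the table, in 9 windows. Both strands were searched for CACCTG and for the general E-box CANNTG, which includes it. The Snai1 window held each, and the other 8 windows held neither (1 of 9, or 11.1%, for both motifs). Of all 32851 windows of the same length, 20.2% held CACCTG on either strand and 72.3% held CANNTG. These matches describe letters in a window and are not measured binding.

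Snai2 encodes SLUG, the second repressor of the SNAIL family. Its probe set 1418673_at read 660.5, 671 and 415 on days 3, 5 and 7 with O(5R)SK, and 636, 520.5 and 375 with O(WT)SK. The day 7 arrays were the lowest of both combinations and lay below both day 3 arrays. The difference between day 7 and day 3 was -0.69 (SE 0.131, or 0.619-fold), with an adjusted p of 0.0752 in limma. It missed the threshold here and passed it under 3 of the alternative settings that keep all arrays. The other probe set, 1447643_x_at, whose suffix marks probes that may also bind other transcripts, read 3382, 3095 and 2839 with O(5R)SK and 3116, 2979 and 3062 with O(WT)SK. Its day 7 arrays also lay below both day 3 arrays, but by -0.14 (SE 0.122, limma adjusted p = 0.538), of which nearly all came from O(5R)SK (-0.25, against -0.02 with O(WT)SK). Between the combinations, 1418673_at read higher with O(5R)SK on all 3 days, by 0.05, 0.36 and 0.14 (mean 0.18, SE 0.107, limma adjusted p = 0.672). The probe set 1447643_x_at changed sign over the days, with a mean of 0.02 (SE 0.0993).

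Foxc2 encodes a forkhead factor of the embryonic mesoderm and the lymphatic vessels. Its probe set 1416693_at read 485, 425 and 344 on days 3, 5 and 7 with O(5R)SK, and 508, 414 and 340.3 with O(WT)SK. Both series went down at each step, and O(5R)SK minus O(WT)SK was -0.06, 0.04 and 0.01 on the 3 days. Day 7 minus day 3 was -0.52 (SE 0.111, 0.698-fold, limma adjusted p = 0.0911), and O(5R)SK minus O(WT)SK was -0.00398 (SE 0.0909). The first of these also passed the threshold under 3 alternative settings.

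**Figure D2:**
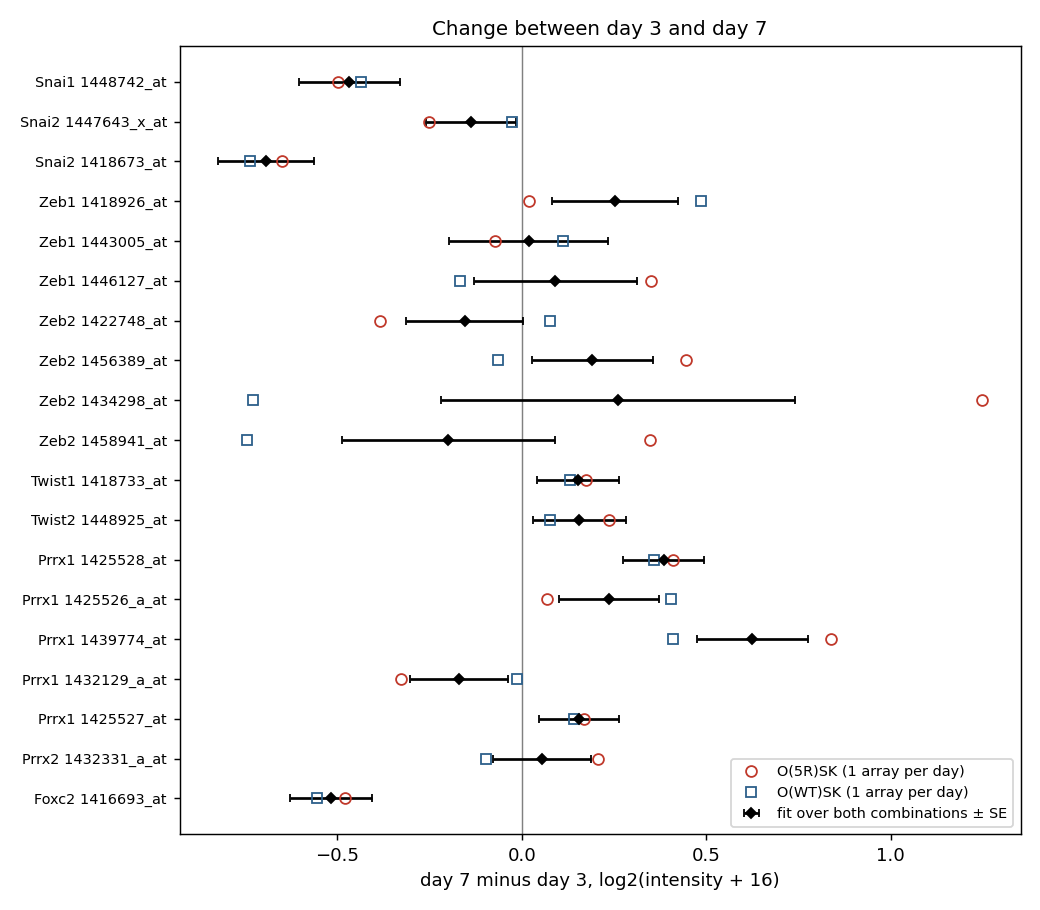
Day 7 minus day 3 in log2(intensity + 16) for the 19 tested member probe sets, with O(5R)SK as red circles, O(WT)SK as blue squares, and black diamonds for the fit over both combinations with its SE. Snai1, Snai2 1418673_at and Foxc2 lie left of 0 with both combinations close together, and the Zeb2 probe sets 1434298_at and 1458941_at have the combinations on opposite sides of 0.

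Twist1 and Twist2 encode basic helix-loop-helix factors of mesenchyme that pair with E proteins. The Twist1 probe set 1418733_at read 1117, 1115 and 1262 on days 3, 5 and 7 with O(5R)SK, and 978, 1004 and 1073 with O(WT)SK. O(5R)SK was above O(WT)SK on every day, by 0.19, 0.15 and 0.23 (SD 0.0409 over 3 days). The mean of 0.19 (SE 0.0900) had a limma adjusted p of 0.637, and day 7 minus day 3 was 0.15 (SE 0.110). The Twist2 probe set 1448925_at read 1175, 1225 and 1386 with O(5R)SK, and 1302, 1465 and 1373 with O(WT)SK. Both Twist2 day 7 arrays lay above both day 3 arrays, by 0.16 on average (SE 0.126), and O(5R)SK was lower on days 3 and 5 but level on day 7 (-0.15, -0.25 and 0.01). Limma called no Twist value.

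Prrx1 and Prrx2 encode paired-related homeobox factors of limb and facial mesenchyme. Prrx1 has 5 tested probe sets, and they did not move alike. The brightest, 1425528_at, read 5327, 6361 and 7089.5 on days 3, 5 and 7 with O(5R)SK, and 5764, 7041 and 7395 with O(WT)SK, with each day above the one before. Its day 7 minus day 3 difference was 0.38 (SE 0.110, limma adjusted p = 0.141). The probe set 1439774_at read 1211, 1534 and 2178 with O(5R)SK, and 1353, 1594 and 1804 with O(WT)SK. It too went up at each step with both combinations, by 0.84 with O(5R)SK and 0.41 with O(WT)SK between day 3 and day 7 (fit 0.62, SE 0.151, 1.54-fold, limma adjusted p = 0.109), and passed the threshold under 3 alternative settings. The probe set 1432129_a_at went the other way, at 978, 773 and 776 with O(5R)SK and 955, 859.8 and 947 with O(WT)SK (-0.17, SE 0.132). Over the 6 arrays its log2 values correlated at -0.46 with 1425528_at and -0.61 with 1439774_at, while those of the last pair correlated at 0.87.

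The Prrx1 probe sets 1425526_a_at, 1425527_at and 1425528_at were designed on the same source sequence, and the sources used here do not place them within it. The first, 1425526_a_at, read 1373, 1525 and 1440.3 on days 3, 5 and 7 with O(5R)SK, and 1523, 1869 and 2022 with O(WT)SK. O(5R)SK lay below O(WT)SK on each day, by -0.15, -0.29 and -0.48. This was the member with the smallest unadjusted p between the combinations (mean -0.31, SE 0.110, limma adjusted p = 0.568). The probe set 1425527_at read 284, 361 and 321 with O(5R)SK, and 315, 412 and 349 with O(WT)SK, and 1425528_at differed between the combinations by -0.11 (SE 0.0901). All 3 read lower with O(5R)SK on every day, whereas 1439774_at (mean 0.02, SE 0.123) was lower on days 3 and 5 and higher on day 7. The sixth Prrx1 probe set, 1458004_at, was under the filter at 0.726 to 22.2. Prrx2, with 1432331_a_at, read 1674, 2055 and 1934.5 with O(5R)SK, and 1852, 2183 and 1731 with O(WT)SK. Its highest array with each combination was day 5, and neither its day difference (0.06, SE 0.132) nor its combination difference (-0.02, SE 0.108) exceeded its standard error.

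Zeb1 and Zeb2 encode large repressors with zinc finger clusters at either end, whose transcripts are held down by the miR-200 family in epithelial cells. Zeb1 has 3 tested probe sets. The probe set 1418926_at, designed on a RefSeq transcript, read 1456, 1903 and 1476 on days 3, 5 and 7 with O(5R)SK, and 1689, 2167 and 2373 with O(WT)SK. O(5R)SK was below O(WT)SK on every day, by -0.21, -0.19 and -0.68 (mean -0.36, SE 0.139, limma adjusted p = 0.587). On day 7 the O(5R)SK array was back at its day 3 level and the O(WT)SK array was at its highest. The day 7 difference was -0.68 after quantile normalization and -0.75 with a common median.

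The other Zeb1 probe sets, designed on other sequences, read otherwise. The probe set 1446127_at read 71.6, 115 and 95.7 on days 3, 5 and 7 with O(5R)SK, and 70.9, 58.3 and 61.4 with O(WT)SK. The combinations were level on day 3, and O(5R)SK was higher afterwards, by 0.82 on day 5 and 0.53 on day 7 (mean 0.45, SE 0.181, limma adjusted p = 0.596). The probe set 1443005_at read 95.9, 161 and 90.3 with O(5R)SK, and 104, 112 and 114 with O(WT)SK, so that O(5R)SK was higher on day 5 alone. The fourth, 1420243_at, lay under the filter at 1.28 to 22.4. Over the 6 arrays 1446127_at correlated at -0.42 with 1418926_at, and thus a direction for Zeb1 between the combinations depends on the probe set.

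Zeb2 had the largest slope difference between the combinations among the tested members. Its probe set 1434298_at read 189, 309 and 470.0 on days 3, 5 and 7 with O(5R)SK, and 265, 241 and 154 with O(WT)SK. The series crossed between day 3 and day 5: O(5R)SK was lower on day 3 (-0.46) and higher on day 5 (0.34) and on day 7 (1.52, or 2.86-fold). On day 7, 2.66% of all tested probe sets were at least 2-fold higher with O(5R)SK and 0.544% at least 2-fold lower, and this was the only member in either class. The difference between the slopes of the combinations, given per 4 days, was 1.98 (SE 0.269, unadjusted p = 0.00146). It ranked 32 of 27002 by p, had a limma adjusted p of 0.620, and lay between 1.51 and 2.44 when any 1 array was left out.

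The probe set 1458941_at crossed in the same way at lower intensity. It read 82.2, 114 and 109 on days 3, 5 and 7 with O(5R)SK, and 123, 88.5 and 66.9 with O(WT)SK. Its slope difference was 1.09 (SE 0.268, unadjusted p = 0.0136, limma adjusted p = 0.620). The probe set 1456389_at stood at 356 on day 3 with each combination, then at 421 and 491 on days 5 and 7 with O(5R)SK, and at 323 and 340.2 with O(WT)SK. Its slope difference was 0.51 (SE 0.209, limma adjusted p = 0.656), and O(5R)SK was above O(WT)SK by 0.36 on day 5 and 0.51 on day 7.

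The Zeb2 probe set designed on a RefSeq transcript, 1422748_at, ran opposite to these. It read 422, 420.2 and 319.6 on days 3, 5 and 7 with O(5R)SK, and 407, 530.5 and 429.9 with O(WT)SK. O(5R)SK was lower on day 5 (-0.33) and day 7 (-0.41), and the slope difference was -0.46 (SE 0.358, limma adjusted p = 0.790). Its log2 values correlated with those of 1456389_at at -0.86, of 1434298_at at -0.62 and of 1458941_at at -0.38 over the 6 arrays, while 1434298_at correlated with 1456389_at at 0.85 and with 1458941_at at 0.78. These coefficients describe 6 arrays that share days. The fifth probe set, 1454200_at, lay under the filter at 12.2 to 35.4. The sources used here do not place the Zeb2 probe sets within the transcript.

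**Figure D3:**
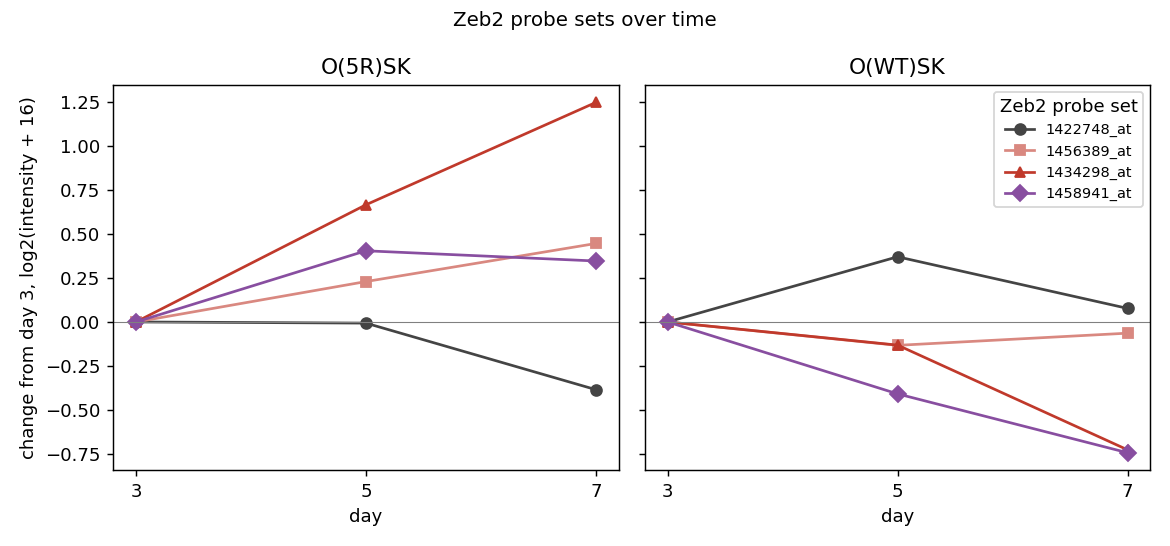
Change from day 3 in log2(intensity + 16) of the 4 tested Zeb2 probe sets, with O(5R)SK on the left and O(WT)SK on the right, 1 array per point. With O(5R)SK, 3 probe sets end above 0 and 1422748_at below it, and with O(WT)SK the signs are turned, with 1422748_at at 0.08 on day 7.

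Zeb2 is also expressed in macrophages. The summed intensity of the 10 macrophage markers was 8063, 4301 and 2938 on days 3, 5 and 7 with O(5R)SK, and 8653, 4828 and 3476 with O(WT)SK. This sum was lower at each step with both combinations, and no marker was at 0 on any array. Most of it was Lyz2, at 5824 on day 3 and 1874 on day 7 with O(5R)SK, and 6294 and 2172 with O(WT)SK. Of the 9 tested markers 1, Fcgr1, was higher on day 7 (0.40). The Zeb2 probe sets 1434298_at and 1458941_at read lower on day 7 than on day 3 with O(WT)SK, as the sum did. With O(5R)SK they read higher, where the sum was lower too. The probe set 1456389_at moved by -0.06 with O(WT)SK and 0.45 with O(5R)SK, and 1422748_at by 0.08 and -0.38. The part of macrophage RNA in the Zeb2 values was not tested.

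Across the members, 4 of the 19 tested probe sets (21.1%) had days 5 and 7 above day 3 with O(5R)SK and below it with O(WT)SK, beside 8.33% of all tested probe sets. They were 1 probe set of Zeb1 and 3 of Zeb2, which share their target genes and are not 4 separate observations. The opposite pattern was shown by 1 (5.26%, against 6.67% of all), Zeb2 1422748_at. For the slope difference limma called 0 of 19 members and 0 of all tested probe sets (0%). At an unadjusted p under 0.05 it marked 2 members (10.5%), beside 7.8% of all.

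Setting O(5R)SK against O(WT)SK on the same days asks whether the OCT4 form alters the factors' levels. Limma called 0 of the 19 member probe sets and 0 of all 27002 (0%), and at an unadjusted p under 0.05 it marked 1 member (5.26%), beside 8.63% of all. O(5R)SK was above O(WT)SK on all 3 days for 4 members (21.1%, against 16% of all), namely Snai2 1418673_at, Zeb1 1446127_at, Zeb2 1456389_at and Twist1. It was below on all 3 days for 5 (26.3%, against 17% of all), namely Snai1, Zeb1 1418926_at and the Prrx1 probe sets 1425526_a_at, 1425527_at and 1425528_at. These Prrx1 probe sets share their gene and source sequence and are not separate observations. Member differences ran from -0.36 to 0.46 with a median of -0.00398, beside -0.00447 for all tested probe sets. Their standard errors ran from 0.0895 to 0.392, and a p above the threshold does not show that the levels were alike. For Twist1, for example, the 95% interval of the difference was -0.05 to 0.43, and for Foxc2 it was -0.25 to 0.24.

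**Figure D4:**
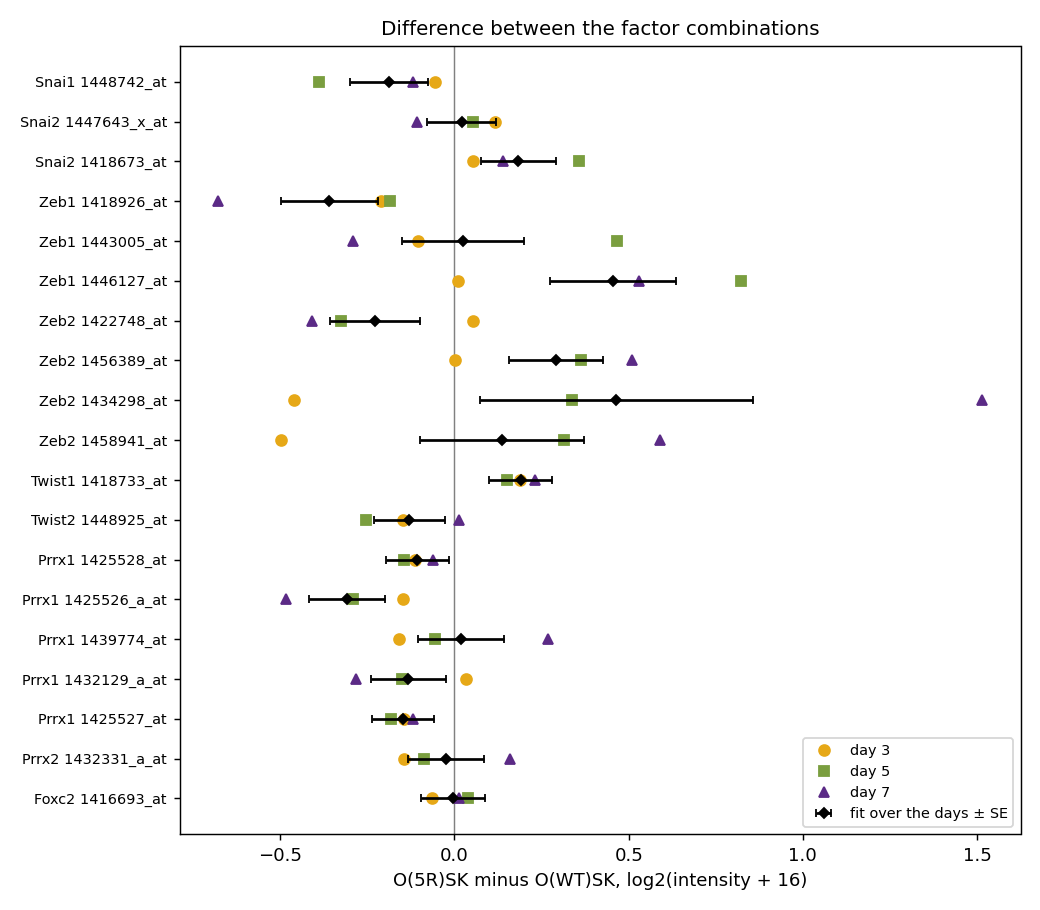
O(5R)SK minus O(WT)SK in log2(intensity + 16) for the 19 tested member probe sets, with a yellow circle for day 3, a green square for day 5, a purple triangle for day 7 and a black diamond for the mean of the fit with its SE. Zeb2 1434298_at spans -0.46 to 1.52 over the days, while Twist1 stays between 0.15 and 0.23.

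By the rule for likeness of pattern, the probe sets whose log2 values over the 6 arrays correlated best with each member's brightest probe set were found among 3589 candidates. With so many candidates and 6 arrays high coefficients arise easily, so they are given as a description. The nearest to Foxc2 were Cotl1 and Arih1 (both r = 0.996), and the nearest to Prrx1 1425528_at were AA467197 (0.997) and Plekha7 (0.995). For Snai1 they were Ppp1r12a (0.979) and Rasgrp3 (0.976), and for Snai2 1447643_x_at Cenpn (0.986) and Slc39a14 (0.951). Those for Zeb1 1418926_at were Zfp352 (0.976) and the collagen gene Col8a1 (0.960), and for Zeb2 1422748_at Usp12 and Parp6 (both 0.972). Twist1 lay nearest to Cyp7b1 (0.982) and Prdm8 (0.981), Twist2 to Mrps25 (0.977) and Zfp940 (0.974), and Prrx2 to Ocrl (0.942) and Sobp (0.937).

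The genes around the factors were read from lists, each gene by its brightest probe set. The TGF-beta pathway turns on Snai1 and Zeb1 in epithelial cells. Of 16 tested genes of its list, 8 were higher on day 7 and 8 lower, with a median log2 difference of 0.01. The list held antagonist genes such as Smad7 and a target gene, Tgfbi, beside ligand and receptor genes. Not each of these is an input. The ligand gene Tgfb3 fell to 1827 on day 7 with O(5R)SK, against 7764 on day 3, and to 1971 with O(WT)SK, against 7364 on day 3 (-1.99, SE 0.131, limma adjusted p = 0.0252). It was the only gene of this list past the threshold. The receptor genes Eng (0.55) and Tgfbr2 (0.50) had the largest positive differences and the secreted Tgfbi had the next lowest (-0.36), none past the threshold. The other upstream genes, 20 tested, split 9 to 11 with 0 past the threshold. They ran from the NOTCH ligand gene Jag1 (-0.44) and the NOTCH target Hey1 (-0.35) to the WNT target Axin2 (0.97) and the cytokine gene Il6 (1.50, limma adjusted p = 0.0604).

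Of 21 tested genes of other EMT-linked transcription factors, 9 were higher and 12 lower on day 7, with a median of -0.06. The T-box gene Tbx2 rose to 342 on day 7 with O(5R)SK, against 149 on day 3, and to 300.3 with O(WT)SK, against 120.0 on day 3 (1.17, SE 0.145, limma adjusted p = 0.0428). It was the only one past the threshold. The homeobox gene Six2 (-0.90) and the HIPPO pathway factor gene Tead1 (-0.64) had the lowest values. Meox2, a homeobox gene of mesoderm, had the next highest (0.68) and read 95.2, 219.9 and 236 on days 3, 5 and 7 with O(5R)SK, against 78.5, 85.3 and 91.3 with O(WT)SK.

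Partners, cofactors and turnover genes of the factors had 0 genes past the threshold in any of their lists for day 7 against day 3. The list of bHLH partners of TWIST held E protein genes, ID genes and other bHLH genes, and not each of these is a TWIST partner. Its 12 genes split 6 to 6, from Hand2 (-0.13) and Tcf3 (-0.10) to Tcf4 (0.51) and Tcf15 (0.66), the last at 8.81 to 64.1 in intensity. Of 18 corepressor genes 6 were higher and 12 lower on day 7 (median -0.10), with Ajuba, a LIM protein that bridges SNAIL to corepressors, the lowest (-0.71, limma adjusted p = 0.0619) and Prmt5 next (-0.39), and with Ctbp2 (0.20) and Hdac1 (0.10) the highest. Of 19 genes of SNAIL and TWIST protein turnover 9 were higher and 10 lower, from the ubiquitin ligase gene Fbxl14 (-0.55) and the kinase gene Csnk1e (-0.31) to the phosphatase gene Ctdsp2 (0.46) and the ligase gene Btrc (0.50).

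Of the epithelial genes that EMT factors repress, 23 of 34 on the array were above the filter. On day 7, 18 of these read higher and 5 lower, with a median difference of 0.63, beside 54.4% higher and a median of 0.04 for all tested probe sets. The filter uses the mean over all arrays, so a gene dim on day 3 can pass it through later values. Cldn3, for example, read 5.82 on day 3 and 115 on day 7 with O(5R)SK, and 26.6 and 74.3 with O(WT)SK. The 11 genes under the filter are not in these counts, which therefore describe the tested genes only. Past the threshold were 5 genes, 3 higher (1.65% of all tested probe sets) and 2 lower (0.781%). Lamb3, a laminin chain gene of epithelial basement membranes, rose to 386 on day 7 with O(5R)SK, against 88.6 on day 3, and to 399 with O(WT)SK, against 84.8 on day 3 (1.99, SE 0.128, limma adjusted p = 0.0252). The serine protease gene St14 (1.17) and the desmosome gene Dsp (1.09, limma adjusted p = 0.0492) rose as well. The keratin gene Krt19 (-1.38) and the desmosome gene Pkp2 (-1.38) fell.

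Cdh1, the E-cadherin gene and a direct target of SNAIL and ZEB proteins, read 133, 256 and 665 on days 3, 5 and 7 with O(5R)SK, and 102, 170.1 and 252 with O(WT)SK. Both series went up at each step, and O(5R)SK was above O(WT)SK on each day. Its day difference of 1.69 (SE 0.273) had a limma adjusted p of 0.0598, and its combination difference of 0.74 (SE 0.223) one of 0.546. The tight junction gene Cldn3 had the second highest day difference of the list (1.84), though it read 5.82 on day 3 with O(5R)SK.

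The motif of SNAIL and ZEB proteins lay in the windows of 18 of the 22 genes of this list that had one (81.8%), against 22.6% of the 27025 genes with a window. By window the shares were 22 of 30 (73.3%) and 20.2%. In the mesenchymal list it lay in 2 of 16 genes (12.5%). The epithelial genes were listed as targets of these factors, so their share is a description of that list. The windows of Dsp and Lamb3 are shown because both genes passed the test and hold the motif close to the start site. They are from RefSeq, GRCm38.p6, plus strand, with CACCTG or CAGGTG in capitals. The Dsp window is chr13:38151044-38151343, with the motif from position 4. The Lamb3 window is chr1:193301993-193302292, the second of its listed starts, with the motif from positions -6 and 5. The window of the first Lamb3 start did not hold the motif. For the other called genes of the list, St14, Krt19 and Pkp2, the sources used here held no window. The motif can therefore not be compared between called genes that rose and fell.
Dsp: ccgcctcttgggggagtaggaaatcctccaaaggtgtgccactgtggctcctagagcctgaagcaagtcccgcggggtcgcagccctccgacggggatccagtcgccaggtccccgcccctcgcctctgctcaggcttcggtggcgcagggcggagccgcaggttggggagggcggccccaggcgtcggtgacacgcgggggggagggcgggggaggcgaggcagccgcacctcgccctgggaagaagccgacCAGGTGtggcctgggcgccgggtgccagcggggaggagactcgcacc
Lamb3: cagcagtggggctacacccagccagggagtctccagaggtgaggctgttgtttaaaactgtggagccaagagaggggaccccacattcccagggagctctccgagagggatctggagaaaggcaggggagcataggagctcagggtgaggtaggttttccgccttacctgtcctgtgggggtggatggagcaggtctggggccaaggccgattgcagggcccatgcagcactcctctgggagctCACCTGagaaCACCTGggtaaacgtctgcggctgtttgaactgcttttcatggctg

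Among epithelial factors that oppose EMT, 10 of 18 on the array lay under the filter, Ovol2 among them at 10.4 to 52.8. Of the 8 tested, 4 were higher and 4 lower on day 7, with 0 past the threshold. The ETS factor gene Ehf was highest (1.89, limma adjusted p = 0.0521), Cdh1 next, and Klf5 (-0.82) and Esrp2 (-0.38) lowest. Grhl2, whose human counterpart is known to repress ZEB1, read 44.2, 65.7 and 31.1 on days 3, 5 and 7 with O(5R)SK, and 41.6, 8.82 and 43.1 with O(WT)SK, with no common course. O(5R)SK was above O(WT)SK for 7 of the 8 (median 0.27), beside 48.9% of all tested probe sets. With a common median it was above for 5 of the 8. Cdh1 (0.74) and Grhl2 (0.48, SE 0.427) had the highest and Gata3 (-0.53) and Klf4 (0.00484) the lowest of these differences. Of the 8, 0 passed the threshold. Grhl2 read lower with O(5R)SK on day 7 (-0.33), and Cdh1 is also on the list of repressed epithelial genes. The part of the delivered KLF4 in the Klf4 value was not tested.

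Of 26 tested mesenchymal genes that EMT factors raise, 21 read lower on day 7 and 5 higher, with a median of -0.12. Of all tested probe sets 54.4% read higher, with a median of 0.04. After quantile normalization 14 of the 26 were lower and 11 higher. Past the threshold were 2 of the 26, both lower, where 0.781% of all tested probe sets were called lower. They were the fibronectin receptor gene Itga5 (-1.51) and the protease gene Mmp9 (-1.28). The highest of the list were Pdgfrb (0.29) and Col3a1 (0.16). Day 7 minus day 3 of the intermediate filament gene Vim stood at -0.09 (SE 0.157), that of the fibronectin gene Fn1 at -0.17 (SE 0.140) and that of the N-cadherin gene Cdh2 at -0.03 (SE 0.145). Between the combinations Col1a2 (-0.44) and Vim (-0.25) had the lowest values and Cdh2 (0.20) and Pdgfra (0.20) the highest, with 0 of 26 past the threshold. The list median of these differences was -0.09, and -0.04 after quantile normalization. Vim read 31366 on the O(5R)SK day 7 array, where the brightest probe set read 34285. How far the range of that array enters these differences was not tested.

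The calls of list genes for day 7 against day 3 rest on all of the day 3 and day 7 arrays. With any of these 4 left out, limma called 0 probe sets over the whole table, and with either day 5 array left out it called 64. Another scaling also moved the split: 551 were called after quantile normalization, 330 of them higher, and 709 with a common median, 375 higher and 334 lower. The common median moved the median day difference of all tested probe sets to -0.07, so directions of lists with medians near 0 are relative to the scaling.

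**Figure D5:**
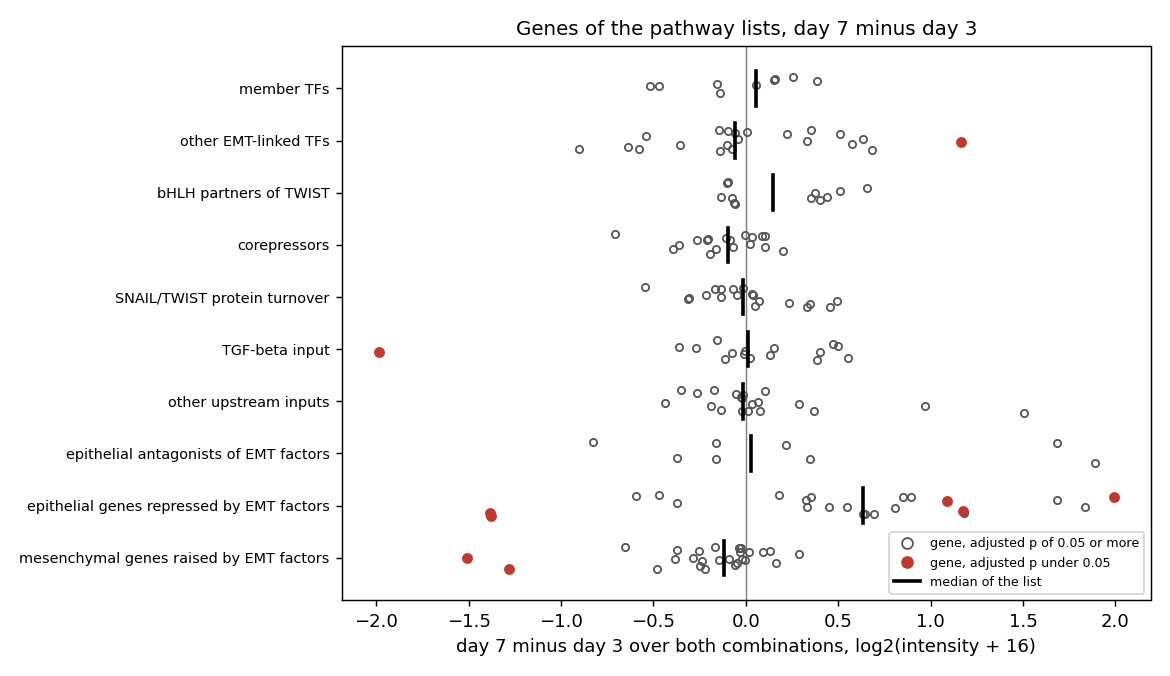
Day 7 minus day 3 in log2(intensity + 16), fitted over both combinations, for the tested genes of the member list and the pathway lists. Each point is 1 gene by its brightest probe set, with red points past the threshold and black bars at list medians. The epithelial genes repressed by EMT factors have the highest median, 0.63, and points on both sides of 0, while the member list has a median of 0.06.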

How the data were processed

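RNA of 6 samples was hybridised to 1 array each, and groups were taken from the sample labels. The deposited table holds a linear intensity for each probe set on each array. Per the submitters' processing notes the authors used affy, with version and summary method not given in the sources used here. Controls (64 probe sets) were left out. Of 45101 probe sets 34958 name 1 gene, 932 several and 9211 none. Values were taken as log2(intensity + 16). Probe sets with a mean above the 40th percentile (log2 5.63, an intensity of 33.5) were tested.

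Models were fitted with lmFit and eBayes of limma 3.58.1 (R 4.3.3), with Benjamini-Hochberg adjustment over 27002 probe sets. The day and combination differences came from 1 additive fit (4 coefficients, 2 residual degrees of freedom, prior of 2.52). Slopes came from combination by day as a number (prior of 2.23). Values within a day or a combination rest on 1 array per side and have no test. The fits were tested on simulated data. The number of arrays limits the precision.

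The members, lists and tests were chosen with earlier results of these data known. From each list the 2 highest and 2 lowest day differences among tested genes are named, for the mesenchymal and epithelial factor lists also those between combinations, with Cdh1, Grhl2, Ovol2, Cdh2, Vim and Fn1 in any case. The 2 nearest genes by Pearson's r over 6 arrays were named among tested probe sets with a range of at least 1 on the log2 scale. St14, Dsp, Lyz2, Marco, Fcgr1, Thy1 and Postn were named after their values were seen, as was the choice of promoters to print. Genes with no probe set of their own were not analysed here. Alternatives were pseudocounts of 64 and 4, no filter, a filter at the 60th percentile, quantile normalization, a common median, a trended robust prior, 1 probe set per gene, and leaving out each array. Figures used matplotlib 3.10.9.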

Additional observations from a re-analysis of the deposited data

Results flagged for a closer look

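For 5 member probe sets, days 5 and 7 lay on one side of day 3 with O(5R)SK and on the other with O(WT)SK, each day being 1 array. The slope difference, O(5R)SK minus O(WT)SK per 4 days, was 1.98 for Zeb2 1434298_at, 1.09 for Zeb2 1458941_at, 0.51 for Zeb2 1456389_at and 0.52 for Zeb1 1446127_at. It was -0.46 for Zeb2 1422748_at. In limma's slope fit none of the 5 passed the threshold, with adjusted p from 0.620 to 0.790. The first of these patterns was shown by 8.33% of all tested probe sets and the second by 6.67%.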

How the results depend on the processing

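With 1 array per combination and day, the day comparison has 2 arrays a side and every test 2 residual degrees of freedom. The number of member probe sets called for day 7 against day 3, 0 of 19 here, was 2 with a pseudocount of 64 (Snai2 1418673_at lower, Prrx1 1439774_at higher). It was 3 of 16 with the filter at the 60th percentile (Foxc2 lower in addition), 4 with a trended robust prior (Prrx1 1425528_at higher in addition) and 1 of 9 with 1 probe set per gene (Foxc2 lower). The last setting keeps the brightest probe set of each gene, so Snai2 1418673_at and Prrx1 1439774_at were not in it. The number of members called was 0 with a pseudocount of 4, no filter, quantile normalization, a common median or any 1 array left out. Over the whole table these settings called 2228, 2902, 3995 and 1287 features, then 269, 0, 551 and 709 with all arrays kept, beside 657 in the main setting. Where members newly passed, calls thus rose across the whole table. The number of features tested differs between settings, so these are counts and not shares to set beside the member counts. The member calls are no result about the members alone. For O(5R)SK against O(WT)SK and for the slopes, 0 members were called under every setting run. Over the whole table the first called 2 with the 60th percentile filter and 55 with the trended robust prior, the second 3 with that prior, and both 0 otherwise. The cause of these moves was not tested.

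Of 759 recomputed values of 57 single member differences, 393 with all arrays kept and 296 with an array left out kept their side and direction, 10 newly passed the threshold, 14 and 46 changed sign and 0 lost a call; 30 of the 57 never changed sign. With all arrays kept, only the scaling turned signs. Quantile normalization gave -0.014 for Zeb1 1443005_at between the combinations, -0.10 for Zeb1 1443005_at and -0.016 for Zeb1 1446127_at between the days, and slope differences of -0.0061 for Foxc2 and -0.073 for Prrx1 1425527_at. A common median gave -0.00082 for Prrx1 1439774_at between the combinations, and -0.052 for Prrx2, -0.089 for Zeb1 1443005_at and -0.016 for Zeb1 1446127_at between the days. It gave slope differences of -0.011 for Foxc2, -0.0010 for Snai2 1418673_at, -0.045 for Twist1, -0.062 for Prrx1 1425527_at and -0.035 for Prrx1 1425528_at.

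Leaving out 1 array turned further signs, given as the lowest and highest value. Between the combinations these were -0.025 to 0.026 for Foxc2, -0.12 to 0.036 for Prrx2, -0.061 to 0.93 for Zeb2 1434298_at, -0.092 to 0.45 for Zeb2 1458941_at, -0.11 to 0.11 for Prrx1 1439774_at, -0.20 to 0.18 for Zeb1 1443005_at and -0.027 to 0.086 for Snai2 1447643_x_at. Between the days they were -0.36 to 0.056 for Zeb2 1422748_at, -0.027 to 0.41 for Zeb2 1456389_at, -0.53 to 1.05 for Zeb2 1434298_at, -0.67 to 0.28 for Zeb2 1458941_at, -0.082 to 0.19 for Prrx2, -0.22 to 0.25 for Zeb1 1443005_at and -0.24 to 0.42 for Zeb1 1446127_at. Slope differences ran from -0.035 to 0.19 for Foxc2, -0.61 to 0.78 for Snai2 1418673_at, -0.48 to 0.35 for Snai1, -0.13 to 0.22 for Twist1 and -0.10 to 0.42 for Twist2. They ran from -1.21 to 0.28 for Zeb1 1418926_at, -1.58 to 1.21 for Zeb1 1443005_at, -0.30 to 1.34 for Zeb1 1446127_at and -1.13 to 0.20 for Zeb2 1422748_at. For the homeobox genes they ran from -0.57 to 0.62 for Prrx1 1425527_at, -0.16 to 0.27 for Prrx1 1425528_at, -0.65 to 0.020 for Prrx1 1432129_a_at and -0.26 to 0.87 for Prrx2.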
